A study of Mus musculus with 8 samples.

Results

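Ly6C-high monocytes of the bone marrow were described at rest from 4 control libraries, out of 8 libraries in the series. The 4 were chosen by the genotype given in the labels, Commd10 fl/fl, and no measured value entered the choice. The mice were untreated males of the C57BL/6 background, 8 weeks old, and littermates, matched by weight, of animals lacking Commd10 in LysM-Cre expressing cells; the 4 libraries of those animals were not used. All 4 control libraries share the floxed Commd10 allele, which differs from an unmodified wild type. Live cells flushed from femur and tibia were sorted as CD45+, CD11b+, CD115+, Ly6C-high, Ly6G- and CD117-, so RNA of the sorted pool and not of single cells was measured. The labels do not say whether the libraries came from separate mice, separate sorts or pools, and they carry no day or batch, so the spread given here is the spread between 4 libraries. The libraries were named control 1 to control 4 in order of deposit, and a number has no further meaning.

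Monocytes arise in the marrow from dividing progenitors under the cytokine receptor CSF1R (CD115) and the transcription factors PU.1 and IRF8. The Ly6C-high, or classical, cells leave the marrow through the chemokine receptor CCR2, circulate in the blood and enter inflamed tissue, where they take up microbes and turn into macrophages or dendritic-like cells. A smaller Ly6C-low population patrols the vessel wall and depends on Nr4a1, and some classical cells carry a granule program close to that of neutrophils or a class II program close to that of dendritic cells.

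The 4 libraries held 25241865, 22364278, 14231121 and 31040255 counts in 15566 listed genes, and 5 of these genes had no count in any control. Values are given as CPM (counts per 1000000 counts of the library), with ± for the SD over the libraries (n = 4). CPM is a share of reads and grows with transcript length, so levels of different genes are compared in TPM (counts divided by exon length and scaled to the same total), and each value is named by its scale. Beside CPM values, words such as lead, abundant, low and lowest refer to the share of counts alone. 1 count stood for 0.0322 to 0.0703 CPM, and a count of 0 allowed up to 0.0966 to 0.211 CPM, counting error only. The row for Cre had no count in the 4 control libraries, and Commd10 was present at 29.2 ± 1.39 CPM. Across 8404 genes with a mean of at least 10 CPM, the root mean square log2 difference between 2 libraries was 0.109 (control 3 and control 4) to 0.183 (control 2 and control 3). Control 2 held 37.1% of the squared deviation from the mean, more than any other library, and the measures of variation that rest on it are given with and without it.

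Reads were spread over many genes. A mean of at least 1 CPM was reached by 11380 genes (73.1%), at least 10 CPM by 8404 (54.0%), at least 100 CPM by 2390 (15.4%) and at least 1000 CPM by 84 (0.540%). The 821 most abundant genes together held 50% of the mean counts, and the number was 805 to 836 in single libraries. The 10 most abundant genes took 7.41% ± 0.149 of the counts and the 100 most abundant 20.3% ± 0.277. Protein-coding genes took 98.7%, the 10 listed mitochondrial genes 1.94% ± 0.0545 and 84 ribosomal protein genes 3.30% ± 0.0899. Per length, the distribution was steeper, as the 10 leading genes held 13.8% of the TPM and 382 genes held 50%.

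**Figure D1:**
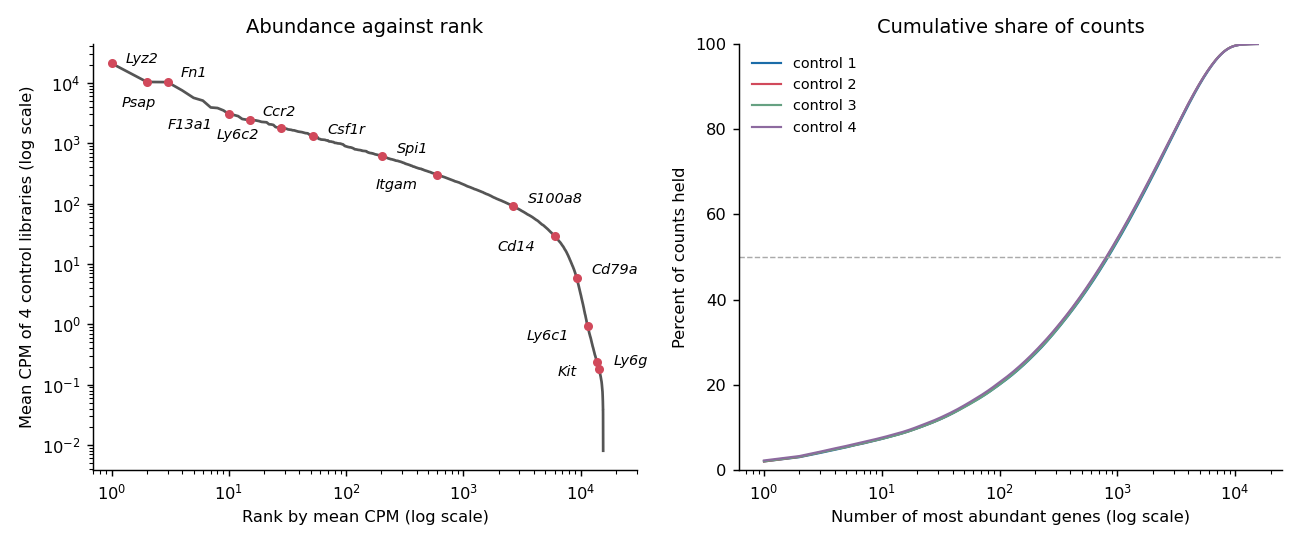
Left, mean CPM of the 4 control libraries against rank, both on log axes, with named genes as red points; right, the percent of counts held by the most abundant genes in each library, with the number of genes on a log axis and a dashed line at 50%. Lyz2 stands at the top with 21022 CPM, Kit and Ly6g lie below 1 CPM, and the 4 cumulative curves lie on each other.

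The most abundant transcript was Lyz2, which encodes lysozyme, an enzyme that cuts bacterial cell walls. Lyz2 (ENSMUSG00000069516, chr10:117277331-117282321 of GRCm38, minus strand) had 20348, 20270, 20809.5 and 22662 CPM in control 1 to control 4 and took 2.10% of all counts. It was highest in control 4, and the highest value was 1.12 times the lowest. Lyz2 led per length too, with 53682 ± 2739.9 TPM, while its near copy Lyz1 had 27.8 ± 5.26 CPM, and reads that fit both genes could have been split between them.

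Next by share of counts came Psap, the precursor of the lysosomal saposins, with 10345 ± 288 CPM, and Fn1, the matrix protein fibronectin, with 10274 ± 330.2 CPM. Fn1 is a long transcript and ranked 25 by TPM against 3 by CPM. The pore-forming protein of phagocytic vesicles, Mpeg1, had 3911 ± 116 CPM, and the complement component C3 had 2408 ± 55.4 CPM. A group of cytoskeletal genes stood among the leading 30, and all of them act on actin, on filaments or on their link to the membrane: Actb (5644 ± 147 CPM), Tmsb4x (3826 ± 72.5 CPM), Flna (3489 ± 52.2 CPM), Vim (2517 ± 76.7 CPM), Tln1 (2044 ± 60.4 CPM), Coro1a (2005 ± 25.6 CPM), Cfl1 (1822 ± 37.9 CPM) and Msn (1796 ± 37.8 CPM). The translation factors Eef1a1 and Eef2 had 5076 ± 136 and 2809 ± 52.6 CPM.

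Mitochondrially encoded subunits of the respiratory chain filled 4 of the 30 places, led by mt-Co1 of complex IV with 7485 ± 198 CPM and followed by mt-Cytb (2942 ± 112 CPM), mt-Nd5 (2330.2 ± 94.2 CPM) and mt-Nd1 (2257 ± 69.3 CPM). Ucp2, a carrier of the inner mitochondrial membrane, had 2058 ± 69.3 CPM. The class I light chain B2m (2232 ± 105 CPM) and heavy chain H2-D1 (2218 ± 128 CPM) belonged to the same 30 genes. The others were the G protein subunit Gnai2 (1852 ± 11 CPM), the nucleotide hydrolase Samhd1 (1777 ± 71.6 CPM), the membrane protein Serinc3 (1759 ± 66.7 CPM), and F13a1, Cybb, Ccr2, Ly6e and Ly6c2, whose values follow.

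The label of the sort was set beside 5 markers of Ly6C-high monocytes, and all 5 lay among the 84 genes over 1000 CPM. Ly6c2 encodes the Ly6C antigen of the gate and Csf1r its CD115, so their levels are no independent check of the label. No other cell type was measured for comparison. Ly6c2 (ENSMUSG00000022584, chr15:75108158-75111970, minus strand) had 1818, 1783, 1742 and 1788 CPM in control 1 to control 4. The 4 values lay close together, with a CV (SD over mean) of 1.76%, and its near copy Ly6c1, high in endothelial and lymphoid cells, had 0.946 ± 0.126 CPM. Ccr2 (ENSMUSG00000049103, chr9:124101950-124113557, plus strand), the receptor for marrow exit, had 2442, 2362, 2504 and 2488 CPM. Csf1r (ENSMUSG00000024621), the CSF1 receptor stained as CD115, had 1206, 1347, 1335 and 1345 CPM, lowest in control 1. F13a1 (ENSMUSG00000039109, chr13:36867178-37050244, minus strand), the A chain of coagulation factor XIII, had 3065, 2981, 2958 and 3094 CPM. With Lyz2, the 5 markers together took 2.96% of the counts.

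The other antigens of the gate were read at the level of RNA. Ptprc, which encodes CD45, had 1126, 1165, 1202 and 1283 CPM and Itgam, which encodes CD11b, had 299, 311, 291 and 299.8 CPM. Of the antigens gated out, the neutrophil gene Ly6g had 0.198, 0.00, 0.211 and 0.322 CPM and Kit, the stem cell factor receptor stained as CD117, had 0.277, 0.134, 0.281 and 0.258 CPM. Both stood at a few counts per library, and Ly6g had none in control 2.

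Promoter windows of the markers show the DNA just before these genes. They are RefSeq windows of GRCm38.p6, cut to the bases before the gene start of GENCODE M21, and 10308 of the 15555 symbols in the table had a window. Windows from 250 bases before to 50 after the start were searched on both strands for 7 words, among them GAGGAAGT, a word bound by PU.1, TTGCNNCAA (C/EBP), TATAAA (the TATA box) and GAAANNGAA (IRF). The PU.1 word stood in 10.8% of the windows of genes over 1000 CPM (9 of 83), in 4.24% of those at 100 to 1000 CPM, in 3.17% of those at 10 to 100 CPM and in 3.20% of all 32851 windows. The 9 windows belonged to F13a1, Ly6c2 (a pair of overlapping windows), Arpc1b, Ctss, Pld4, Ddx5 (a pair) and Ctsc, and windows of 1 gene share sequence. TATAAA stood in 21.7% of the windows over 1000 CPM, 6.37% at 100 to 1000 CPM, 6.60% at 10 to 100 CPM and 13.6% of all. The GC-rich word GGGCGGGG stood in 31.3%, 35.6%, 32.8% and 17.6% in that order, so it was not most frequent over 1000 CPM. All windows include 19740 of genes not in the table, where TATAAA stood in 17.9% and GGGCGGGG in 8.89%. Median GC content was 59.3% over 1000 CPM, 62.3% at 100 to 1000 CPM, 60.7% at 10 to 100 CPM and 52.7% in all windows. Capitals mark the PU.1 word in either direction, and lower case the rest. Ly6c2, Lyz2 and F13a1 are shown as markers. S100a8, from the classical monocyte list, is shown because its window held the PU.1 word. S100a4 of that list had the word too, but not in the bases before the start, and is not shown. The windows of Ly6c2 (chr15:75111972-75112221, minus strand), Lyz2 (chr10:117282322-117282522, minus strand), F13a1 (chr13:37050245-37050494, minus strand) and S100a8 (chr3:90668821-90668977, plus strand) read 5′ to 3′ as follows.
Ly6c2: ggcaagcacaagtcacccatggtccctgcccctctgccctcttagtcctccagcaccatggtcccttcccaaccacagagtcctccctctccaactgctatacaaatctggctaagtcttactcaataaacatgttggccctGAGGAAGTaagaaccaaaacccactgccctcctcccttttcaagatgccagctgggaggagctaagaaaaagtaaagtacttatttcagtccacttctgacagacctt
Lyz2: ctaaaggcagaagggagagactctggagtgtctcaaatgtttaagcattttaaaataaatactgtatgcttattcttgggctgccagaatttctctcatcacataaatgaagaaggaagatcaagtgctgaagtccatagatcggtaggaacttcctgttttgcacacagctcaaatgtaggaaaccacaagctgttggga
F13a1: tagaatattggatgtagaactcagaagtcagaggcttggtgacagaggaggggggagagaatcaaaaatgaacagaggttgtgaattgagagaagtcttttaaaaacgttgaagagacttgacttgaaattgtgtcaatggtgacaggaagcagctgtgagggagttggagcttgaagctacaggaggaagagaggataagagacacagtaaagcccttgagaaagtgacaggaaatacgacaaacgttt
S100a8: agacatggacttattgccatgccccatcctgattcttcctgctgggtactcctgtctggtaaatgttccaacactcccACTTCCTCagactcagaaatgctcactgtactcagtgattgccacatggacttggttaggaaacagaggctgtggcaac
The word began 108 bases before the RefSeq start in Ly6c2 and 172 bases before it in S100a8, there on the other strand. The windows of Lyz2 and F13a1 shown here held none of the 7 words; the PU.1 word of F13a1 lay in another window, that of a second start. A match of letters is no binding site, and these shares were not tested.

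All 26 genes of the classical monocyte list were at or above 10 CPM, and 23 of them were above 100 CPM, with a list median of 989 TPM against 11.3 TPM over all genes. Ly6e, a small surface protein of the Ly6 family, had 2383 ± 41.9 CPM. Chil3, a secreted chitinase-like lectin, had 1621, 1791, 1285 and 1488 CPM, highest in control 2. Galectin 3 (Lgals3) had 1504 ± 53.8 CPM and the matrix protein Tgfbi had 1465 ± 82.3 CPM. Plac8 had 1139 ± 64 CPM and Hp (haptoglobin) 846 ± 80.1 CPM. The membrane genes Ms4a6c (519.8 ± 13.8 CPM), Ms4a4c (431 ± 25 CPM) and Ms4a6b (394 ± 24.1 CPM) varied little among libraries. Cd14, the co-receptor for lipopolysaccharide that marks classical monocytes in humans, had the fewest counts of the list with 23.7, 41.1, 21.8 and 27.8 CPM, and it was highest in control 2.

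Genes of other monocyte states were present below that level. Of 18 listed genes of Ly6C-low patrolling monocytes, 10 reached 10 CPM, with a median of 37.7 TPM. They were led by the fractalkine receptor Cx3cr1 with 446, 402, 427 and 508 CPM, Spn (CD43) with 346 ± 12.5 CPM, Clec4a1 with 253 ± 24.5 CPM, Pou2f2 with 191 ± 12.6 CPM and Ace with 136 ± 27.6 CPM. Nr4a1, the factor on which these cells depend, had 88.1, 146, 123 and 131 CPM, lowest in control 1. Fabp4 (0.766 ± 0.256 CPM) and Cd300e (0.282 ± 0.145 CPM) were the members below 1 CPM. In a bulk sample, a few cells with much of a transcript and many cells with little of it give the same value, and fewer cells of a type cannot be told apart from less RNA per cell.

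Of 21 genes of neutrophil-like monocytes, 18 reached 10 CPM. Beside Chil3, genes with many counts on this list were the G-CSF receptor Csf3r (384 ± 29.4 CPM), the neutrophil surface antigen Cd177 (362, 326, 416 and 389.6 CPM) and the marrow retention receptor Cxcr4 (270.0 ± 15.6 CPM). Gfi1, a repressor needed for neutrophil development, was the lowest of them at 0.306 ± 0.0807 CPM. Of 19 genes of dendritic-like monocytes, 13 reached 10 CPM, led by the aspartic protease Napsa with 551, 547, 537 and 539 CPM. The invariant chain Cd74 had 315, 192, 429.8 and 340.3 CPM and the peptide loader H2-DMa 179 ± 16.1 CPM. Napsa was steady among libraries while Cd74 was lowest in control 2. Tmem176b had 85.9 ± 5.93 CPM and the class II chain H2-Ab1 83.5, 44.3, 112 and 79.4 CPM, again lowest in control 2. Klrd1 (0.386 ± 0.273 CPM) and the homing receptor Ccr7 (0.302 ± 0.207 CPM) were under 1 CPM.

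Adhesion genes had a median CV of 4.15% over members with a mean of at least 10 CPM, and 20 of the 22 on the list reached that mean. The median CV was 4.97% for all genes of that mean. It was 3.75% for genes at 100 to 1000 CPM, the class in which the list median of 245 CPM lay. By share of counts, members near the top of the list were Itgb2 (1175 ± 33.1 CPM), the β2 chain shared by the leukocyte integrins, Itgb7 (859 ± 25.4 CPM), Itga4 (855 ± 57.6 CPM) and the selectin ligand Selplg (814 ± 32.6 CPM). Itga4 pairs with Itgb7 or Itgb1 to bind VCAM1 and MAdCAM1, and Itgb1 had 305 ± 5.3 CPM. Per length, Itgb2 stood at 1294 ± 37.4 TPM, Itgb7 at 1043 ± 34.2 TPM, Itgal (the α chain of LFA-1) at 296 ± 11.9 TPM, Itga4 at 206 ± 13.7 TPM and Itgam at 201 ± 5.37 TPM. Itgax, the CD11c chain of dendritic cells, was the lowest of the 22 per length with 2.89 ± 0.478 TPM.

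Among 27 leukocyte surface antigens, 20 reached 10 CPM. After Ly6e, Ly6c2 and Ptprc came Tyrobp, the adaptor DAP12, with 993 ± 32.6 CPM, and the inhibitory receptor Sirpa, which binds CD47, with 947, 879, 1026 and 1092 CPM. Tyrobp is a short transcript and led the list per length with 5001 ± 163 TPM. Ly6c1 and Ly6g were the members under 1 CPM. The tetraspanin Cd63 had 1.4 ± 0.378 CPM and the receptors Trem1 and Trem2 had 2.86 ± 1.27 CPM and 49.1 ± 3.88 CPM. Per length, Trem1 had 3.21 ± 1.42 TPM and Trem2 33.4 ± 2.66 TPM.

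Ccr2 led the chemoattractant receptors, and 13 of the 21 reached 10 CPM. Ccr2 had 1218 ± 33.2 TPM, and the next per length were Cxcr4 (502 ± 29.2 TPM), Cx3cr1 (332 ± 32.5 TPM) and the leukotriene B4 receptor Ltb4r1 (275 ± 11.6 TPM). Cx3cr1 had 332, 300.2, 320.5 and 377 TPM in control 1 to control 4 and did not overlap with Cxcr4, which had 489.6, 545, 490.4 and 482 TPM. Gpr35 had 214 ± 23.3 CPM, the inflammatory chemokine receptor Ccr1 109 ± 20.0 CPM and the platelet-activating factor receptor Ptafr 80.7 ± 12.5 CPM. Values further down were 15.6 ± 2.22 CPM for the formyl peptide receptor Fpr2, 2.39 ± 0.456 CPM for Fpr1, 11.5 ± 1.09 CPM for the complement C5a receptor C5ar1 and 1.39, 0.581, 0.562 and 0.838 CPM for Cxcr2. Of the 21 receptors, 4 were under 1 CPM, namely Cxcr2, the egress receptor S1pr1 (0.495 ± 0.153 CPM), Ccr7 and the eosinophil receptor Ccr3 (0.239 ± 0.161 CPM). Per length, the related receptors S1pr4 (82 ± 3.78 TPM) and S1pr5 (34.4 ± 8.73 TPM) stood above S1pr1 (0.546 ± 0.167 TPM).

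Of 27 cytokine and growth factor receptors, 24 reached 10 CPM and 16 reached 100 CPM. Csf1r was followed by the TNF receptor Tnfrsf1b (744 ± 40.6 CPM), the interleukin 6 receptor Il6ra (685 ± 15.9 CPM), the interleukin 17 receptor Il17ra (651 ± 43.3 CPM) and the GM-CSF receptor chain Csf2ra (474 ± 21.8 CPM). The receptor chains for GM-CSF, M-CSF and G-CSF were all present, and per length they stood in the order Csf1r (762 ± 40.8 TPM), Csf2ra (555 ± 26 TPM), Csf3r (358 ± 27 TPM) and Csf2rb (184 ± 20.0 TPM). The last pair are neighbours whose ranges were 334, 339, 367 and 392 TPM and 187, 211, 169 and 168 TPM in control 1 to control 4. Both chains of the interferon γ receptor (Ifngr1 464 ± 8.85 CPM, Ifngr2 227 ± 15.5 CPM) and of the type I interferon receptor (Ifnar1 181 ± 11.5 CPM, Ifnar2 226 ± 11.7 CPM) were measured. The progenitor receptor Flt3 had 15.9 ± 1.64 CPM. Kit and the interleukin 1 receptor Il1r1 (0.331 ± 0.156 CPM) were under 1 CPM, and the decoy Il1r2 had 1.3 ± 0.401 CPM.

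Every one of 16 Toll-like receptor genes and partners exceeded 1 CPM, and 15 exceeded 10 CPM. The chaperone Unc93b1, which carries the endosomal receptors to their place, led with 969, 964, 1005 and 1003 CPM. Tlr13, a mouse sensor of bacterial ribosomal RNA, had 323 ± 13.3 CPM, the partners Ly86 (MD-1) 306 ± 14.1 CPM and Cd180 (RP105) 277 ± 32.1 CPM, and the adaptor Myd88 189 ± 7.85 CPM. The endosomal receptors had 125 ± 15.8 CPM for Tlr9, 124 ± 4.75 CPM for Tlr8 and 108 ± 11.3 CPM for Tlr7, and the lipoprotein receptor Tlr2 had 149 ± 6.34 CPM. The lipopolysaccharide receptor Tlr4 had 33.1, 39.5, 28.3 and 26.5 CPM and its partner Ly96 (MD-2) 10.5 ± 0.57 CPM. Tlr3 was lowest per length, at 2.85 ± 0.33 TPM.

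The lectin and scavenger list was led by the β-glucan receptor Clec7a (dectin 1) with 511 ± 33.2 CPM, Clec12a with 380.0 ± 40.1 CPM, the lipoprotein receptor Scarb1 with 303 ± 15.2 CPM, Clec4a1 and Clec4a3 with 213 ± 18.9 CPM. Among receptors known from resident macrophages, values were 175 ± 14.5 CPM for Msr1, 16.5 ± 3.53 CPM for the mannose receptor Mrc1, 4.96 ± 0.963 CPM for the hemoglobin scavenger Cd163 and 1.56 ± 0.877 CPM for the kinase Mertk. All 21 members with a row exceeded 1 CPM. Among the Fcγ genes, the common signalling chain Fcer1g had 691 ± 26.4 CPM, the activating receptors Fcgr3 350.5 ± 20.9 CPM and Fcgr1 149, 183, 139.6 and 145 CPM, and the inhibitory receptor Fcgr2b 230.1 ± 4.75 CPM. Fcgr4, the activating receptor known from Ly6C-low monocytes, had 11.3, 16.5, 9.77 and 8.86 CPM and was highest in control 2.

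**Figure D2:**
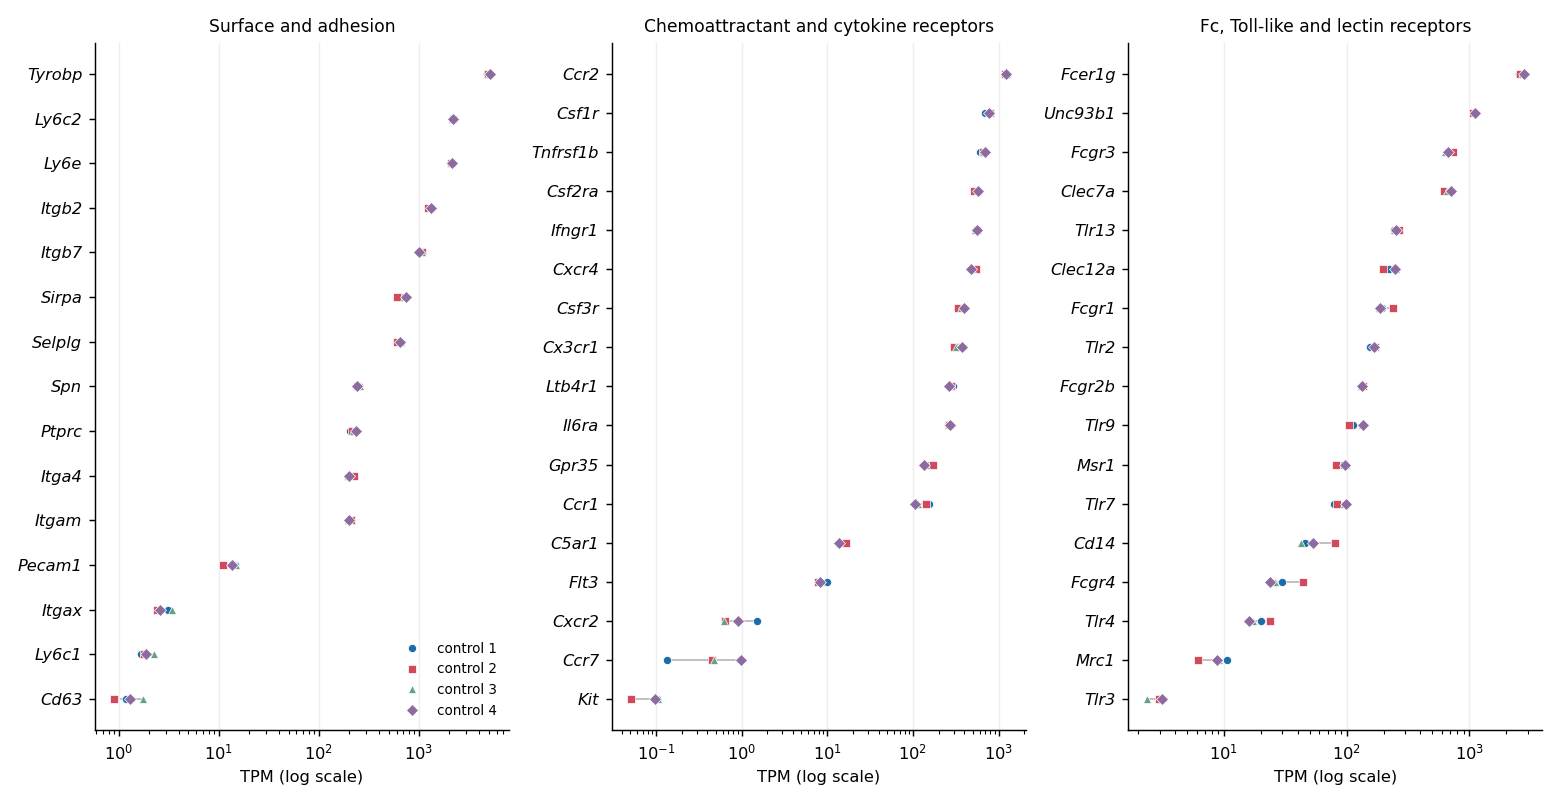
TPM in each of the 4 control libraries on log axes, 1 row per gene, ordered by mean TPM within a panel; a grey line joins the lowest and highest library. Tyrobp, Ccr2 and Fcer1g lead their panels, the libraries overlap within a marker's width for most genes, and Cxcr2, Ccr7 and Kit, all under 1 CPM, spread widest.

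Lysosomal genes were abundant as a group. All 23 members of the list exceeded 10 CPM and 19 exceeded 100 CPM, with a median of 567 TPM against 11.3 TPM over all genes. After Lyz2 and Psap came cathepsin B (Ctsb, 1607 ± 37.3 CPM), the membrane protein Lamp1 (1369 ± 43 CPM) and cathepsin S (Ctss, 1201, 1280.5, 1260.2 and 1289 CPM), which trims the invariant chain. Per length, Ctss stood above Ctsb, at 3112 ± 99.6 TPM and 892 ± 22.6 TPM. Cathepsin C (Ctsc), which activates granule serine proteases, had 1012 ± 45.1 CPM, and cathepsin L (Ctsl) had 34.2 ± 5.42 CPM. The sum of the 23 genes was 42438, 43417, 43383 and 45234 CPM in control 1 to control 4, and Lyz2 was the largest single contributor.

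Granule genes of neutrophil precursors were counted in every library. The primary granule list had a median of 68.2 TPM, against 11.3 TPM over all genes. Prtn3 (proteinase 3) had 133, 111, 76.3 and 57.3 CPM, Elane (neutrophil elastase) 70.5, 54.8, 62.2 and 46.6 CPM, Mpo (myeloperoxidase) 40.0, 29.1, 33.7 and 26.6 CPM and Ctsg (cathepsin G) 29.6, 17.8, 20.3 and 16 CPM. Each was highest in control 1, and each was lowest in control 4. The proteoglycan Srgn, which packs granules in many blood cells, led the primary granule list with 134 ± 11.3 CPM, and Prss57, with 0.734 ± 0.18 CPM, was under 1 CPM. Of 18 secondary and tertiary granule genes, 12 reached 10 CPM. They were led by Cybb (2459 ± 63.4 CPM), the catalytic subunit of the phagocyte oxidase, which monocytes use as well, then Chil3, Hp, Cd177 and the collagenase Mmp8 (244 ± 24.7 CPM). Lactoferrin (Ltf) had 8.36, 9.3, 10.8 and 15 CPM, Ngp 27.3 ± 6.75 CPM and cathelicidin (Camp) 3.17, 4.43, 6.61 and 5.86 CPM. Ltf and Camp were lowest in control 1, whereas Lcn2, of the same list, was highest there, with 74.5, 48.9, 36.8 and 31.2 CPM. As a list, the secondary and tertiary granule genes deviated from their mean over the 4 libraries by 0.15, 0.04, -0.10 and -0.08 in log2 CPM in control 1 to control 4. Each member weighs alike in this measure, and Lrg1, of the same list, had a mean of 5.37 CPM, or 1.72 CPM without control 1. The deviations were not computed without Lrg1 and cannot be read as shared by the list. Its summed CPM was 6005, 6349, 5752 and 5913 in control 1 to control 4, highest in control 2. Gelatinase B (Mmp9) had 1.56 ± 0.233 CPM, Retnlg 0.854 ± 0.46 CPM and Chil1 0.462 ± 0.226 CPM, the last pair under 1 CPM.

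The S100 genes encode small calcium-binding proteins, and 8 of the 12 on the list had a row. S100a6 had 334 ± 14.1 CPM, S100a10 307 ± 18 CPM, S100a4 196 ± 6.25 CPM and S100a11 143 ± 8.34 CPM. S100a8 had 133, 85.1, 71.5 and 70.9 CPM and its partner S100a9 112, 69.1, 66.8 and 61.5 CPM, both highest in control 1, and the other 3 libraries lay between 70.9 and 85.1 CPM for S100a8. Short transcripts weigh little in CPM, and per length S100a4 had 1126 ± 34.3 TPM, S100a6 821 ± 32.1 TPM, S100a9 498 ± 148 TPM and S100a8 436 ± 142 TPM. Subunits of the phagocyte NADPH oxidase were present. The membrane subunits Cybb and Cyba (518 ± 11.6 CPM), the cytosolic subunits Ncf1 (523 ± 57.3 CPM) and Ncf4 (279 ± 28.2 CPM) and the GTPases Rac1 (630.3 ± 9.19 CPM) and Rac2 (772 ± 28.3 CPM) exceeded 100 CPM, and the proton channel Hvcn1 had 13.9 ± 1.56 CPM.

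The list of secreted proteins was led by Fn1, F13a1, C3, Lgals3 and Tgfbi. The chemokines Ccl6 (791 ± 37.1 CPM) and Ccl9 (652 ± 26.7 CPM), known from mouse myeloid cells, led the chemokines of the list. Apolipoprotein E (Apoe) had 488, 405, 572 and 530.4 CPM and the matrix proteoglycan Vcan 299, 256, 136 and 193 CPM, highest in control 1. The coagulation factors F10 (256 ± 44.6 CPM) and F5 (118 ± 9.22 CPM) and the complement regulator properdin (Cfp, 324 ± 16.3 CPM) were present, whereas F7 had 1.61 ± 0.208 CPM. For inflammatory mediators, values were 46.4 ± 12.5 CPM for Ccl3, 20.0 ± 6.59 CPM for the CCR2 ligand Ccl2, 11 ± 1.61 CPM for Tnf, 12.2 ± 1.37 CPM for Il18, 5.56 ± 4.35 CPM for Cxcl2 and 3.5 ± 0.91 CPM for Il1b. Igf1 (0.357 ± 0.141 CPM) and Vegfa (0.344 ± 0.178 CPM) were under 1 CPM.

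Of 32 transcription factors of the myeloid lineage, 25 reached 10 CPM and 12 reached 100 CPM. Zeb2, a zinc finger repressor, had 599, 611, 609.7 and 664 CPM, Spi1, which encodes PU.1, 593, 596, 616 and 609 CPM, and Irf8 559.9, 531, 531 and 572 CPM. Klf4, needed for Ly6C-high monocytes, had 468 ± 45.9 CPM and Klf13 425 ± 20.8 CPM. The order changes per length, where Cebpb led the myeloid list with 913 ± 131 TPM, followed by Spi1 (753 ± 15.5 TPM), Klf4 (516 ± 51.5 TPM) and Klf2 (469.7 ± 83.2 TPM). Zeb2, a long transcript, had 105 ± 4.64 TPM. The neutrophil factors Cebpe (11.4 ± 1.22 CPM) and Gfi1 were low, as were Egr2 (0.656 ± 0.0828 CPM) and Zbtb46 (0.491 ± 0.21 CPM), a factor of conventional dendritic cells.

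Every one of 32 signal-dependent factors exceeded 10 CPM. The AP-1 member Fos had 690.0, 1427, 1106 and 1459.8 CPM, Junb 393, 709.8, 522 and 558 CPM and Jun 229, 425, 340.3 and 445 CPM, all lowest in control 1. Irf5 (659 ± 22.8 CPM), Stat6 (426 ± 8.45 CPM) and Nfkb1 (380.4 ± 21.5 CPM) varied less. Of 14 factors of other lineages with a row, Nfe2, a factor of megakaryocytes and erythroid cells that is also known from myeloid cells, was the exception with 270.3, 299, 275 and 291 CPM. The other 13 were under 10 CPM, led by Spib (8.13 ± 2.62 CPM), Meis1 (5.42 ± 0.812 CPM), the B cell factor Pax5 (5.06 ± 2.18 CPM) and Tal1 (2.25 ± 0.291 CPM), and 7 were under 1 CPM. The 5 lowest were Tbx21 (0.0661 ± 0.0593 CPM), Hoxa9 (0.0962 ± 0.0956 CPM), Tcf7 (0.161 ± 0.0903 CPM), Gata1 (0.218 ± 0.146 CPM) and Klf1 (0.225 ± 0.155 CPM). The list median was 0.587 TPM, against 31.8 TPM for the myeloid factors and 11.3 TPM for all genes.

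**Figure D3:**
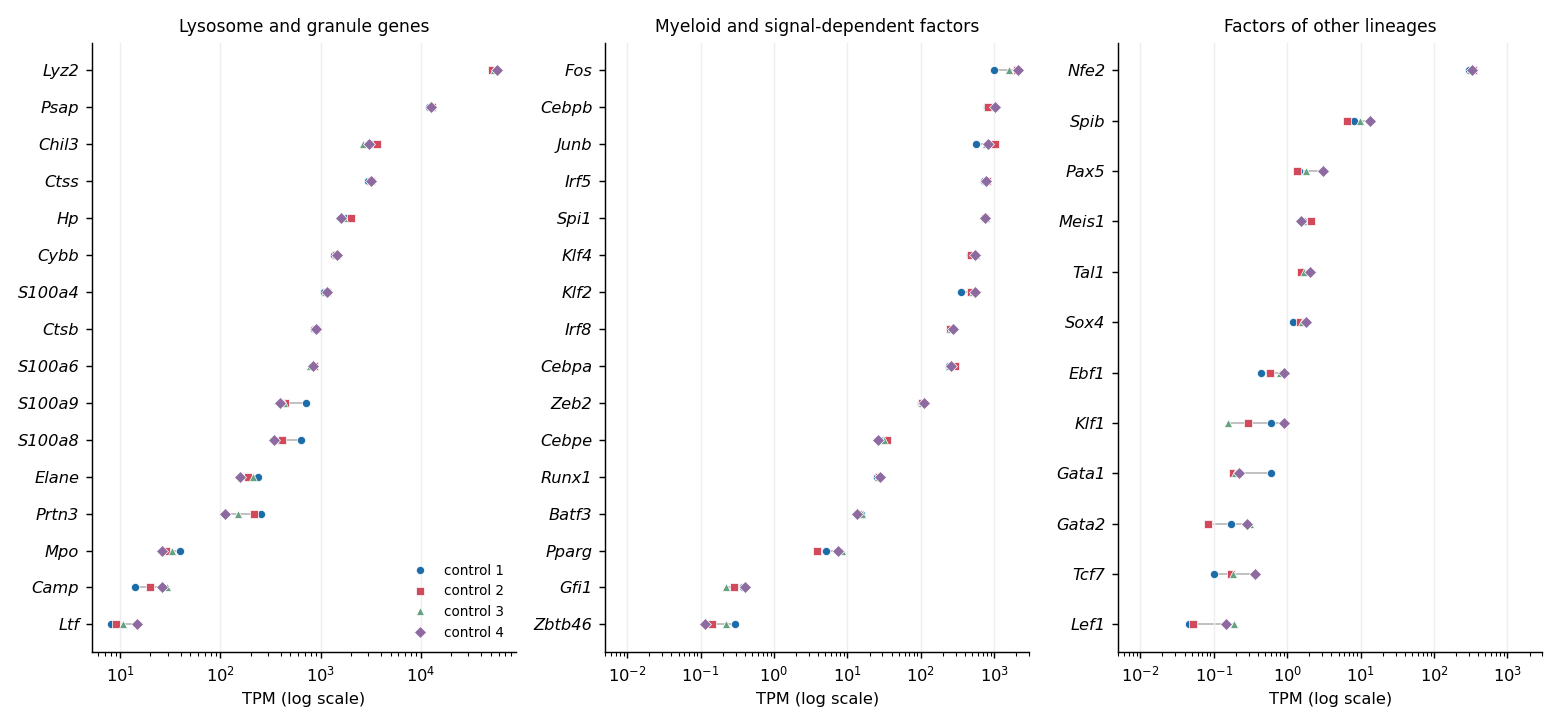
TPM in each of the 4 control libraries on log axes, 1 row per gene, for lysosome and granule genes, myeloid and signal-dependent transcription factors and factors of other lineages, ordered by mean TPM. Granule genes span from Lyz2 at 53682 TPM to Ltf, and in the right panel Nfe2 stands alone above 100 TPM.

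Genes of both antigen presentation paths were measured. B2m, H2-D1 and H2-K1 (969 ± 83.7 CPM) led class I, with the peptide loaders Tapbp (380.1 ± 17.8 CPM) and Tap1 (278 ± 10.2 CPM) next. All 13 class I genes exceeded 10 CPM and the list median CV was 5.7%. Class II had a list median of 70.6 TPM against 171 TPM for class I, and its median CV was 30.8%, or 16.7% without control 2. H2-Aa had 88.5, 37.5, 113 and 79.8 CPM, H2-Eb1 44.8, 16.7, 58.3 and 39.4 CPM and the class II transactivator Ciita 14.7, 10.3, 17.1 and 15.3 CPM. H2-Aa and H2-Eb1 were lowest in control 2 and highest in control 3.

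Interferon-stimulated genes were present at rest. Of 24, 23 reached 10 CPM, led by the antiviral membrane protein Ifitm3 with 1247, 1334, 1315 and 1336 CPM, the nuclear DNA sensors Ifi203 (493 ± 35.1 CPM) and Ifi204 (332 ± 20.4 CPM), Ifitm6 (294 ± 18.4 CPM) and the factor Irf7 (269, 254, 308 and 325 CPM). Per length, Ifitm3 had 6484 ± 212 TPM and ranked 10 of all genes. Isg15 had 25.2 ± 2.43 CPM and Ifi44, the lowest, 4.73 ± 0.766 CPM. The list sum was 4521, 4734, 4946 and 5080.1 CPM in control 1 to control 4, lowest in control 1.

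Genes of cell division were abundant in all libraries. All 20 mitosis genes and all 18 S phase genes exceeded 10 CPM. The proliferation antigen Mki67 had 1214, 1096, 1114 and 1019 CPM, Top2a, which untangles DNA, 721, 643, 653 and 592 CPM, and the tubulin Tubb5 854 ± 60.1 CPM. The kinesin Kif11 (263 ± 18.2 CPM) and cyclin A2 (Ccna2, 222 ± 15.4 CPM) followed. Among S phase genes, Mcm5 (212 ± 20.6 CPM), Rrm1 (208 ± 22.1 CPM), Pcna (205, 200.1, 189 and 169 CPM), Mcm7 (162 ± 14.2 CPM) and Mcm6 (158 ± 18.3 CPM) led. The sums were highest in control 1 and lowest in control 4 for both lists, at 5423, 4820.5, 4954 and 4569 CPM for mitosis and 2064, 1764, 1792 and 1599 CPM for S phase in control 1 to control 4. Among G1 regulators, cyclin D3 (Ccnd3) had 459.7 ± 15.8 CPM, while Ccnd1 had 1.71 ± 0.608 CPM and Ccnd2 1.05 ± 0.155 CPM, and the inhibitor Cdkn1b had 178 ± 11 CPM. A bulk value does not say which of the sorted cells were dividing.

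Glycolytic genes were led by Pkm (1489.7 ± 56.2 CPM), Aldoa (674 ± 17.6 CPM), Gpi1 (629 ± 11.9 CPM), Gapdh (578 ± 42.4 CPM) and Eno1 (486 ± 29.9 CPM), and 16 of 20 reached 10 CPM. Gapdh has many processed copies in the mouse genome, so part of its reads could have gone to them. Of 15 circadian clock genes with a row, 9 reached 10 CPM. Nfil3 had 80.6 ± 14.8 CPM, Clock 61.3 ± 2.68 CPM, Per1 28.6, 62.2, 32.4 and 35.7 CPM, Cry1 27.6 ± 1.63 CPM and Arntl (BMAL1) 16.6 ± 1.8 CPM. Per1 was highest in control 2, and Per2 was under 1 CPM with 0.75 ± 0.22 CPM. The male-specific genes Ddx3y (71.7, 66.1, 75.5 and 65 CPM), Eif2s3y (72.7 ± 11.6 CPM), Kdm5d (44.6 ± 2.81 CPM) and Uty (17.3 ± 1.94 CPM) were counted in all 4 libraries, and the label gives male mice.

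Markers of other cells were counted against the sort. Over 17 lists, 129 different genes with a row together took 0.274% ± 0.0203 of the counts, and 99 of them that stand on no monocyte, granule or receptor list took 0.163%. By comparison, the classical monocyte list took 5.76%. The lists overlap with what monocytes express, and the part of other cells in any result was not tested.

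Erythroid markers summed to 698, 579.5, 419.9 and 734 CPM in control 1 to control 4. The globins Hbb-bs (334, 277, 190.1 and 334 CPM), Hba-a1 (128, 107, 88.6 and 142 CPM), Hba-a2 (78.2 ± 19.4 CPM) and Hbb-bt (72.7 ± 18 CPM) made up most of the sum, all lowest in control 3; the paralogs share reads. The heme enzyme Alas2 had 42.4, 34.4, 24.4 and 44.1 CPM, whereas the erythroid factors Klf1 and Gata1 and the receptor Epor (0.269 ± 0.0756 CPM) were under 1 CPM. The B cell list summed to 492, 455, 566 and 631 CPM, and 1 gene, the µ heavy chain Ighm, gave most of it with 443, 414, 505 and 549 CPM. The B cell receptor chain Cd79a had 4.16, 3.93, 6.75 and 8.6 CPM, Cd79b 16.7 ± 2.06 CPM and the κ chain Igkc 11.7, 7.06, 13.7 and 18.5 CPM. Cd79a and Igkc were highest in control 4 and lowest in control 2, as was the antibody gene list of plasma cells, which summed to 7.8, 6.04, 16.9 and 25.2 CPM and was led by Igha (4.48, 2.82, 9.13 and 18.2 CPM) and Jchain (2.26, 0.984, 1.48 and 3.38 CPM).

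The mature neutrophil list summed to 742, 675, 718 and 716 CPM, mostly from Cd177 and Mmp8, while Ly6g, Cxcr2 and Retnlg were under 1 CPM. The neutrophil precursor list held Elane, Mpo, Prtn3, Ctsg, Ms4a3, Fcnb (43.7 ± 6.9 CPM), Cebpe and Gfi1. Its sums were 342, 271, 248 and 195 CPM. They were highest in control 1 and lowest in control 4, as were the sums of the mitosis and S phase lists. Stem and progenitor markers summed to 33.4, 27.9, 32.3 and 28.8 CPM, with Flt3 first, Cd34 at 6.37 ± 1.86 CPM, and Kit, Procr (0.0813 ± 0.0656 CPM), Hoxa9 and Gata2 (0.339 ± 0.165 CPM) under 1 CPM.

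Macrophage markers summed to 396, 367, 407 and 430.2 CPM. Adgre1, the F4/80 antigen that monocytes carry too, had 192 ± 13 CPM, the heme oxygenase Hmox1 112 ± 2.52 CPM and Siglec1 62.9 ± 11.6 CPM. Of the 14 genes on the list, 4 reached 10 CPM. Among the others, values were 2.15 ± 0.346 CPM for Vcam1, 1.38 ± 0.594 CPM for C1qa, 0.916 ± 0.60 CPM for Spic, 0.42 ± 0.318 CPM for Cd5l and 0.0449 ± 0.0318 CPM for Timd4. The plasmacytoid list rested on Tcf4 (61, 63.2, 64.3 and 69 CPM), and Siglech had 1.42 ± 0.933 CPM. The conventional dendritic list rested on Cd209a (24.5, 9.3, 23 and 19.2 CPM) and Flt3, and Xcr1 (0.401 ± 0.0882 CPM), Zbtb46 and Itgae (0.243 ± 0.12 CPM) were under 1 CPM. The endothelial list rested on Flt1 (24.9, 17.7, 29.7 and 34.9 CPM), a VEGF receptor also known from monocytes, and Cdh5 (0.535 ± 0.183 CPM), Kdr (0.315 ± 0.075 CPM), Tie1 (0.219 ± 0.0832 CPM) and Esam (0.0628 ± 0.0262 CPM) were under 1 CPM.

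Eosinophil markers summed to 13.5, 28.9, 19.4 and 9.05 CPM, led by the granule proteins Prg2 (5.78, 11.8, 9.13 and 3.58 CPM) and Epx (2.85, 9.26, 4.01 and 1.55 CPM), both highest in control 2. Basophil and mast cell markers summed to 4.16, 3.98, 4.85 and 5.32 CPM and were led by the basophil protease Prss34 (1.7 ± 0.344 CPM). T cell markers summed to 1.48 to 3.58 CPM, NK markers to 0.984 to 1.62 CPM, megakaryocyte markers to 2.35 to 3.30 CPM and stromal markers to 1.19 to 1.66 CPM. The defining genes Cd3d (0.113 ± 0.14 CPM), Ppbp (0.145 ± 0.0923 CPM) and Cxcl12 (0.101 ± 0.0998 CPM) stood at a few counts. Nkg7, of the NK list, had 0.86 ± 0.119 CPM. Of the osteoclast genes, Acp5 had 6.38, 8.67, 6.11 and 6.67 CPM and Ctsk 0.227 ± 0.0878 CPM.

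**Figure D4:**
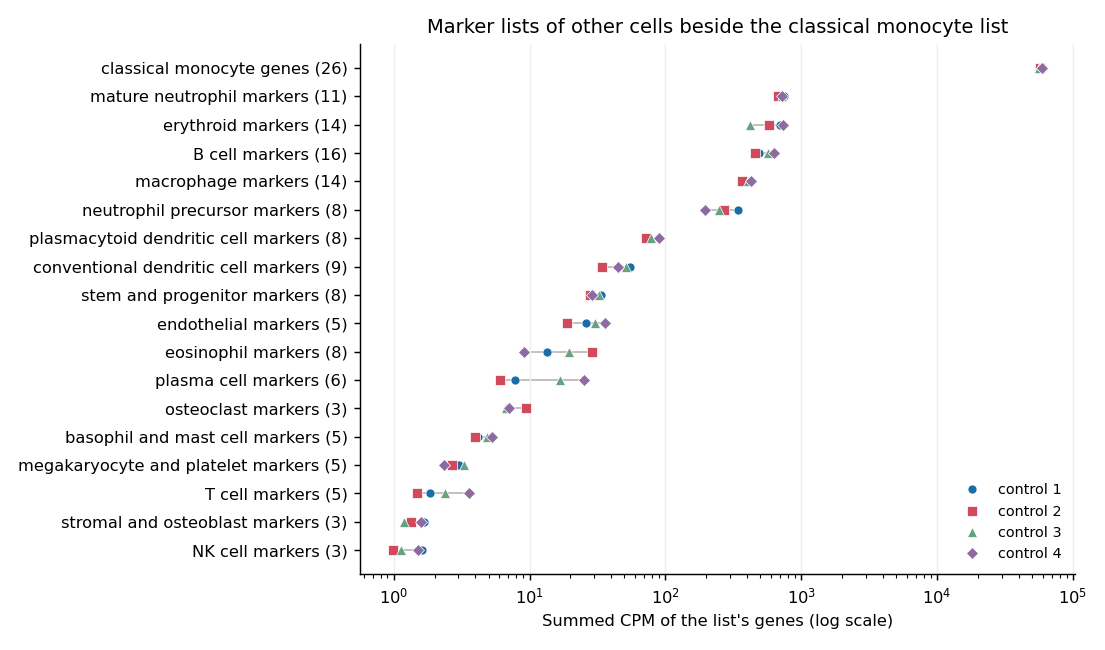
Summed CPM of each marker list in the 4 control libraries on a log axis, with the number of genes with a row in brackets and the classical monocyte list on top. The classical list lies near 57643 CPM, and no list of another cell type exceeds 742 CPM in any library.

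Variation among the 4 libraries was small for abundant genes. The median CV was 2.81% for genes of 1000 CPM and over, 3.75% at 100 to 1000, 5.46% at 10 to 100, 13.7% at 1 to 10 and 40.4% under 1 CPM. The CV calculated from counting error alone had medians of 0.555%, 1.64%, 3.63%, 11.7% and 41.1% in these classes. A CV taken over 4 libraries tends to fall below the calculated value. The 40.4% beside 41.1% therefore does not show that the lowest class is free of further variation. The CV was above that of counting for 81 of the 84 genes in the highest class, and for 91.2%, 75.8%, 64.1% and 51.2% of the genes in the next classes down. A mean of at least 10 CPM with a CV of at least 30% was found for 57 genes, or 0.678% of those of that abundance. Of the 57, 36 were highest in control 2, 9 in control 4 and 6 each in control 1 and control 3. Without control 2, 21 genes met the same bounds, 12 of them among the 57; without control 1, control 3 and control 4 there were 62, 75 and 63.

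Bhlhe40 and Trib1 had the largest CVs among genes with a mean of at least 10 CPM. Bhlhe40, a basic helix-loop-helix repressor, had 10.3, 39.9, 11.2 and 9.31 CPM in control 1 to control 4, a CV of 84.1% beside 5.14% from counting. Trib1, a pseudokinase that directs C/EBPα to degradation, had 9.31, 44.3, 14.2 and 12.6 CPM and a CV of 80.8%. Both genes stood apart in control 2, and without that library their means were 10.2 and 12.0 CPM and their CVs 9.09% and 20.7%. Fosb, an AP-1 member, had 27.8, 120.4, 80.7 and 162 CPM, and Dusp1, a phosphatase of MAP kinases, had 106, 332, 225 and 393 CPM. Fosb and Dusp1 were highest in control 4 and lowest in control 1, and without control 2 their CVs were 74.8% and 59.8%. Of the 30 genes with an assigned name and the largest CVs, 8 kept a CV of at least 30% when control 2 was left out.

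Several more variable genes had their highest value in control 2. The stress factor Atf3 had 39.8, 116, 51.5 and 53.3 CPM, the cytokine Osm 15.4, 46.2, 22.2 and 21.9 CPM, the NF-κB cofactor Nfkbiz 30.3, 74.7, 33.1 and 35 CPM and the phosphatase subunit Ppp1r15a 47.1, 109, 62 and 66.6 CPM. The heat shock genes Hspa1a (5.43, 16.5, 8.22 and 13.6 CPM) and Hspa1b (8.79, 22.9, 13.1 and 20.2 CPM), near copies of each other, were lowest in control 1. Tubb6 had 18, 39.6, 13.5 and 16.1 CPM, the glycosyltransferase Gcnt2 20.6, 33.9, 13.6 and 10.1 CPM, the retinal reductase Dhrs3 60.9, 99.2, 36.3 and 40.6 CPM, and the secretory kinase Fam20c 38.3, 65.4, 25.2 and 33.4 CPM. Dhrs3, Fam20c and Tubb6 were highest in control 2 and lowest in control 3. Ptgfrn, Thbs1, Fam134b, Eps8l1 and Klhl12, with means of 11.9, 40.2, 22.6, 10.5 and 14.2 CPM, also had their highest value in control 2, at CVs of 35.9% to 37.4%.

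Another set was lowest in control 2. It held the class II genes H2-Eb1 and H2-Aa, the lectin Cd209a, the prostaglandin dehydrogenase Hpgd (71.3, 31.9, 91.2 and 101 CPM), the surface receptor Slamf7 (11.9, 7.29, 18.9 and 14.4 CPM) and Igkc. Hpgd and Igkc were highest in control 4, H2-Eb1, H2-Aa and Slamf7 in control 3, and Cd209a in control 1. Lcn2, a siderophore-binding protein of neutrophil granules, and Prtn3 were highest in control 1 and lowest in control 4.

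The libraries were also compared by gene list, on the log2 scale, as the mean log2 CPM of members with at least 1 CPM minus its mean over the 4 libraries. Immediate early and heat shock genes deviated by -0.46, 0.38, -0.07 and 0.15 in control 1 to control 4. Class II genes deviated by 0.12, -0.54, 0.33 and 0.08 and circadian clock genes by -0.09, 0.31, -0.04 and -0.17. Control 2 was highest for early response and clock genes and lowest for class II, and Bhlhe40 and Per1 belong to the clock list. Primary granule genes deviated by 0.39, 0.02, -0.06 and -0.35, S phase genes by 0.21, -0.03, -0.00 and -0.17 and mitosis genes by 0.14, -0.04, 0.00 and -0.11, in each case highest in control 1 and lowest in control 4. The classical monocyte list deviated by 0.04, 0.04, -0.07 and -0.01. Without control 2, the deviations in control 1, control 3 and control 4 were -0.33, 0.05 and 0.28 for immediate early and heat shock genes, -0.06, 0.15 and -0.10 for class II and 0.01, 0.06 and -0.07 for clock genes. Those of primary granule genes were then 0.39, -0.05 and -0.34.

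**Figure D5:**
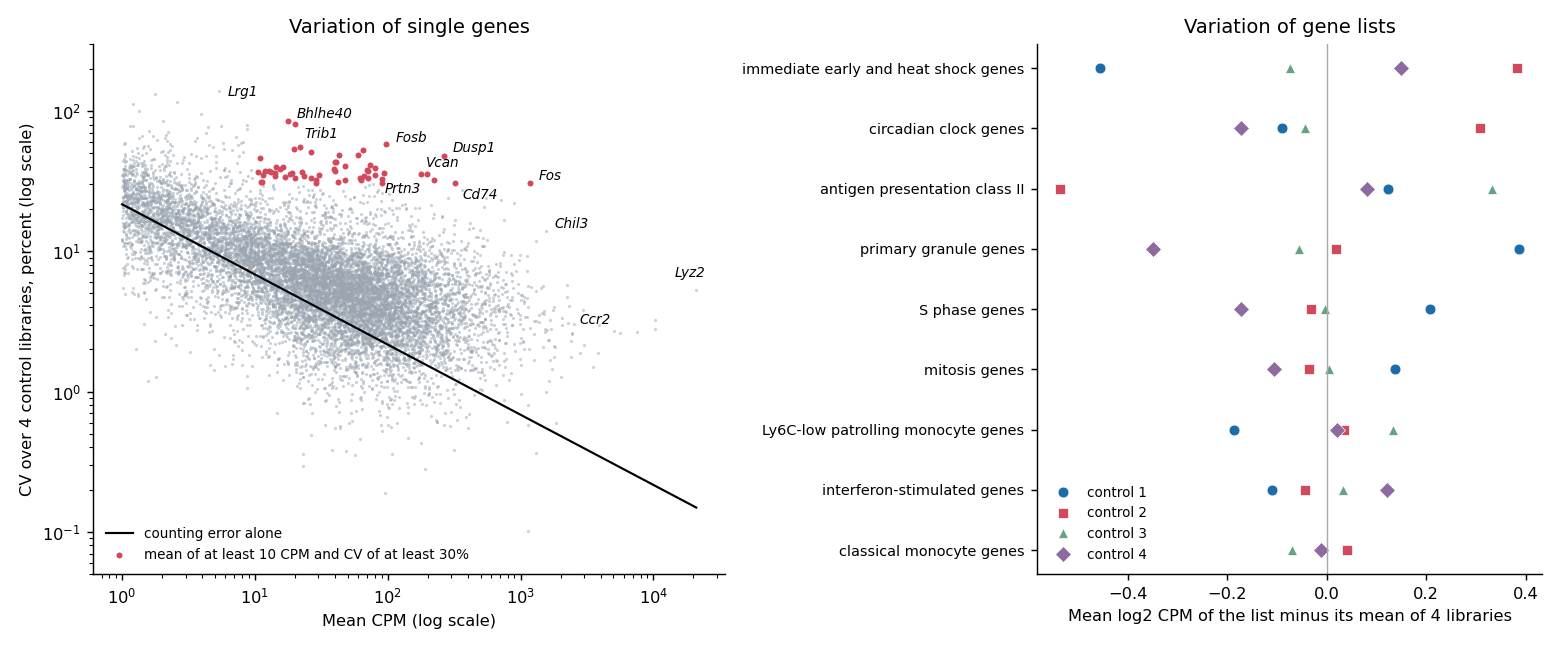
Left, CV over the 4 control libraries against mean CPM on log axes for genes of at least 1 CPM, with the CV that counting alone gives as a black line and the 57 genes with a CV of at least 30% in red; right, the log2 deviation of gene lists in each library from their mean. Bhlhe40 and Trib1 lie highest among the red points, and control 2 (red squares) and control 1 (blue circles) lie farthest out in the right panel.

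The steadiest genes of at least 100 CPM were Iqgap1, a scaffold of the actin cortex, with 1148, 1146, 1146 and 1146 CPM and a CV of 0.102%, followed by Pacsin2, Rmnd5a, Arpc2, Edem1, Ppp6r3, Rnf115, Map4k4, Becn1 and Wnk1. Their means were 192, 107, 1317, 313, 178, 142, 405, 105 and 292 CPM. A CV under the counting CV, 0.638% for Iqgap1, can arise where 4 libraries happen to lie close, and sets no bound on the variation of the gene.

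Genes whose pattern over the 4 libraries lay nearest to each marker were found among 8404 genes, by the root mean square difference of centred log2 CPM. Reep5, Vamp8 and Top1 lay nearest to Ly6c2 at 0.00292 to 0.00354, Cyb5a, Yipf1 and Ehmt2 to Ccr2 at 0.00137 to 0.00352, and Ino80b, Fam160b1 and Tgfbrap1 to F13a1 at 0.00239 to 0.00412. Dyrk1b and Psme2b were among the 3 nearest to Lyz2, at 0.00590 and 0.00640, and Dmxl1, Trim62 and Acvrl1 lay nearest to Csf1r at 0.00831 to 0.0110. With only 4 libraries, and markers that hardly varied, such neighbours describe these libraries alone.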

How the data were processed

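Polyadenylated RNA of sorted marrow monocytes was sequenced as single reads from 500 ng of total RNA, per the labels' protocols. Raw read counts, as the authors deposited them in 1 table, were used; its 8 columns of normalized values were not. GRCm38, cutadapt, STAR 2.7.3a, HTSeq 0.12.4 and DESeq2 appear in the submitters' processing notes with no role for each. The sources used here do not say whether counting used strand, so reads of overlapping genes on either strand are uncertain, and paralogs may share reads. Every listed gene reaches 6 counts in at least 1 of the 8 libraries.

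CPM was counts over the library total of named genes, without the Cre row. TPM used union exon lengths of GENCODE M21 (15551 of 15566 identifiers matched), which exceed the main transcript of some genes. Pairs of libraries differed by more than sampling noise (chi-square per degree of freedom 2.88 to 10.2), so none was taken for a copy of another; this does not show that they came from separate mice. With 1 group there was no comparison of groups and no test of one, and Dixon's bound served only to pick single libraries in the closing section; the CV over 4 libraries was set beside the CV from counting alone, a calculation checked on simulated data.

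The 50 gene lists and all bounds were chosen with earlier results of these data known; 71 of their 638 genes had no row in the table and were not analysed here. Named are the 5 markers, the gate antigens, the 30 most abundant genes, the 5 most abundant members of each list with up to 5 members under 1 CPM, the 30 most variable genes of at least 10 CPM with an assigned name, the 10 steadiest of at least 100 CPM, and the 3 genes nearest to each marker. Other members were named after their values were seen, and a few genes that the rule names are not reported here. Itgam and Aldoa each have 2 identifiers, and the one with more counts was used. Alternatives were TMM factors (edgeR 4.0.16), size factors (DESeq2 1.42.0), other filters, lengths and lists, and leaving out each library.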

Additional observations from a re-analysis of the deposited data

Results flagged for a closer look

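In a group of 4 libraries, a value was set apart where the gap between the highest or lowest library and its neighbour was a larger part of the whole range than Dixon's 95% bound allows. Chance sets apart about 1 in 20 where items are not picked by their values, and 21 of the 393 genes and lists looked at were set apart. Some of the 393, such as the most variable genes and those nearest to a marker, were picked by their values in these libraries. Control 2 stood apart for Bhlhe40 (39.9 CPM), Trib1 (44.3 CPM), Nfkbiz (74.7 CPM), the clock gene Nfil3 (102.7 CPM), Cxcr4 (293 CPM) and C3 (2491 CPM), in each case as the highest library. It was the lowest for Serinc3 (1659 CPM) and Kit (0.134 CPM, 3 counts). The summed clock list (399 CPM), which includes Bhlhe40 and Nfil3, and the summed osteoclast list (9.35 CPM) were highest in control 2. Control 1 stood apart as the highest for S100a9 (112 CPM) and Gata1 (0.436 CPM), and as the lowest for Csf1r (1206 CPM), Ctsb (1551 CPM) and Acvrl1 (31.9 CPM). Control 3 was lowest for Tmsb4x (3717 CPM) and mt-Cytb (2773 CPM) and highest for Tmem176b (94.8 CPM). Control 4 was highest for Psme2b (18.2 CPM) and for the summed leukocyte surface antigens (10434 CPM), and lowest for the summed cell cycle control genes (1477 CPM). Acvrl1 was looked at because its pattern lay near that of Csf1r, so it is no separate result beside Csf1r. Psme2b was looked at because its pattern lay near that of Lyz2.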

How the results depend on the processing

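TMM or DESeq2 scaling left 11380 genes with a mean of at least 1 CPM and 821 genes with 50% of the counts, and gave 60 variable genes in place of 57. With 1 library left out, the genes of at least 1 CPM numbered 11371 to 11404, those with 50% of the counts 816 to 826, the 10 leading genes held 7.34% to 7.45%, and markers of other cells 0.267% to 0.281%. The count of variable genes was 21 to 75, the lowest without control 2. Leaving out 1 library moved the mean of 11 named genes by over 1.5 times. Those of at least 1 CPM were Bhlhe40 (10.2 CPM), Trib1 (12.0 CPM) and Epx (2.80 CPM) without control 2, Lrg1 (1.72 CPM) without control 1 and Igha (5.48 CPM) without control 4. The others were Cd3d (0.0449 CPM), Cxcl12 (0.0556 CPM), Gata1 (0.145 CPM) and Hoxa9 (0.0491 CPM) without control 1, Tbx21 (0.0413 CPM) without control 3 and Cd5l (0.270 CPM) without control 4. Values per length changed the distribution, since 382 genes held 50% of the TPM and the leading 10 genes 13.8%; with the longest transcript as length, added after seeing the data, these were 432 genes and 11.6%. Without mitochondrial genes the leading 10 held 7.08%. Variable genes numbered 38 with a mean of at least 20 CPM, 91 with a mean of at least 5 CPM and 3223 with no filter. Markers of other cells took 0.163% without members of the monocyte, granule and receptor lists. All 393 recomputed means of genes and sums of lists moved by less than their SD over the 4 libraries under both scalings. The factors lay between 0.990 and 1.01 and average out over the libraries, so such a mean could move little. No paired analysis was possible because only 1 group was described and no test was made.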

Other observations

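Per length, short housekeeping transcripts stood among the 30 leading genes. Thymosin β10 (Tmsb10), which binds actin, had 4185 ± 99.0 TPM and the peroxide-reducing enzyme Gpx1 4049 ± 48.5 TPM. The ferritin light chain Ftl1 had 3165 ± 83.8 TPM and the protease inhibitor cystatin C (Cst3), a gene known from mononuclear phagocytes, 2791 ± 62.5 TPM. The ribosomal proteins Rps15, Rplp1 and Rplp0 had 3466 ± 90.7, 3280 ± 109.5 and 3089 ± 79.7 TPM. The mitochondrial genes mt-Nd2 and mt-Nd6 had 4426 ± 138 and 4407 ± 216 TPM. mt-Nd6 lies on the other strand from its neighbours, and its value depends on whether strand was used in counting, which the sources used here do not say.

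The gene Lrg1, a leucine-rich glycoprotein of the secondary granule list, had a mean of 5.37 CPM, below the bound for variable genes. Its values were 16.3, 4.02, 0.492 and 0.644 CPM in control 1 to control 4, and its mean without control 1 was 1.72 CPM. It was named after its values were seen.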
